A study of Mus musculus with 12 samples.

Results

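Gastrocnemius RNA of mice lacking PGC-1alpha and muscle PGC-1beta together was hybridised directly against RNA of mice lacking PGC-1alpha alone on 3 of the series' 12 arrays. These 3 arrays, taken by their titles and called direct 1, direct 2 and direct 3, hold no floxed control RNA. The Cy5 dye marked the double knockout and the Cy3 dye the alpha knockout, on each of them the same way round. The deposited ratio was therefore double knockout over alpha knockout. It addressed what the removal of PGC-1beta changes in muscle that has no PGC-1alpha to begin with.

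The coactivators PGC-1alpha (gene Ppargc1a) and PGC-1beta (gene Ppargc1b) switch on transcription without binding DNA themselves. They bind nuclear receptors such as the oestrogen-related receptors, and factors such as NRF1 and GABP, at genes of the respiratory chain, and they are known for raising mitochondrial content in oxidative muscle. The proteins share many target genes.

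The double knockout mice were PGC-1alpha-/- beta f/f/Mlc1fCre, with Ppargc1a deleted on both alleles together with a floxed Ppargc1b recombined by Mlc1f-Cre. The Mlc1f gene encodes a myosin light chain of fast fibres, and cells of the tissue that do not express the Cre keep Ppargc1b. The mice they were compared with were PGC-1alpha -/-, and both sides of the direct ratio thus lack PGC-1alpha. All were males of 12 weeks on a C57BL6/J x sv129 background. The same pair of genotypes was also measured on 6 further arrays, 3 with double knockout and 3 with alpha knockout RNA over PGC-1beta f/f control RNA. The difference of their log2 ratios, double minus alpha, is called the indirect difference here. The labels do not say whether the arrays of a group hold separate mice, pooled mice or repeats of 1 RNA, nor whether the direct and the other arrays shared RNA. The p-values therefore reflect how far arrays differ from one another, and that difference may be technical.

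Of 40928 probes, 70.6%, 68.6% and 63.8% gave a usable ratio on direct 1, direct 2 and direct 3. The rest were undefined or lay on a small fraction of whole numbers, as dim or equal signals do. Probes with 1 gene symbol stood for 19437 genes, of which 17805 had a value on at least 1 direct array, 12816 had one on all 3 and 11402, those with at least 2 values in every group of arrays, entered the test. Arrays give no count depth, and their number limits the precision. The log2 ratios of the direct arrays correlated with each other at 0.376 to 0.445 over 21950 to 24117 probes. Before scaling, the double knockout signal was far below the alpha knockout signal on all 3 arrays. The median unscaled ratio of usable probes was 0.184, 0.296 and 0.0431. Every log2 ratio below was therefore centred, so that 0 stands for the middle gene on that array. Direct 3 stood apart, with 23.7% undefined ratios against 11.6% and 10.8%, and the authors' rounding in steps of 0.001 made its low ratios coarse. Several genes share 1 value on direct 3 for that reason. Signals are not in the table, so the presence of muscle markers could not be read from a level.

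Ppargc1b, the gene removed on one side only, had log2 ratios of -0.12, -1.39 and -1.82 on direct 1, direct 2 and direct 3. It was near the median gene on direct 1 and below it on the other two, with a mean of -1.11 ± 0.88 (SD, n = 3). It fell by limma's test (adjusted p = 0.0306), and lost the call without direct 2 (adjusted p = 0.131) or without direct 3 (adjusted p = 0.192). Its 3 probes averaged -1.05, -0.26 and -2.03. Over floxed control RNA, Ppargc1b had 0.35, 0.30 and 0.27 in the double knockout and averaged 1.13 in the alpha knockout. The double knockout reading was thus not below the control. Its indirect difference of -0.83 did not pass (limma adjusted p = 0.380). The sources do not place these probes relative to the floxed exons. Ppargc1a, deleted on both sides, had 1.01, 0.59 and 0.79, with probe means of 1.54 and 0.05, and did not pass (adjusted p = 0.085).

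Of the 11402 genes tested, 1579, or 13.8%, changed on the direct arrays at a Benjamini-Hochberg adjusted p below 0.05 (limma, mean log2 ratio against 0, two-sided). In the double knockout 640 genes were higher and 939 lower than in the alpha knockout, which is 5.61% and 8.24% of the genes tested. Counts within gene lists below are to be read against these shares. Among the 3451 genes with no dim or undefined value on the arrays over floxed RNA, 9.48% were higher and 9.68% lower. Rises and falls on the direct arrays are relative to the alpha knockout, and do not place a gene above or below the floxed control. Without centring, the same test gave 39 higher and 1966 lower, where the median fitted log2 ratio was -0.76, against -0.09 with centring. The change was 1.17 on the log2 scale in the median changed gene and at least 0.59 in each. The call rested on all 3 arrays: 209 of the 1579 genes, 86 higher and 123 lower, also passed with each direct array left out in turn. Without direct 2 the test gave 387 genes and without direct 3 it gave 337, against 1275 without direct 1. Genes that kept the call in all 3 of these fits are called stable below. In a fit of the 3 direct arrays alone no gene passed, although 3063 of 16010 had an unadjusted p below 0.05. Each limma p-value takes its spread from all 11 fitted arrays, those over floxed RNA included. It does not test the SD printed beside it. With all 12 arrays fitted, 266 genes passed.

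Of 47 gene lists examined, that of complex II lay lowest. Complex II, succinate dehydrogenase, passes electrons from succinate to ubiquinone and belongs to both the citric acid cycle and the respiratory chain. All 6 tested members were below 0, and 4 fell. The list's median log2 ratio was -1.29, against -0.09 over all genes tested. In bulk RNA, fewer fibres of a type and less RNA per fibre cannot be told apart.

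Sdhb, the iron-sulphur subunit, had log2 ratios of -2.08, -1.80 and -3.07 on direct 1, direct 2 and direct 3. It was 4.98-fold lower in the double knockout than in the alpha knockout (mean -2.32 ± 0.66, SD, n = 3, limma adjusted p = 0.00768). Without direct 3 the adjusted p was 0.0576. Sdhc, a membrane anchor that binds haem, had -1.55, -1.97 and -1.94. The 3 values lay close together, and its 3.53-fold lower level was stable (mean -1.82 ± 0.24, SD, n = 3, limma adjusted p = 0.00308). Sdhd, the other anchor, had -1.52, -0.86 and -1.48 (limma adjusted p = 0.0137). Sdha, the flavoprotein subunit, had -0.70, -0.85 and -2.30, with direct 3 far below the others (limma adjusted p = 0.0293). The assembly factors Sdhaf1 and Sdhaf2 averaged -0.46 and -0.46 and did not pass. In the authors' deposited tables the mean ratio over floxed controls of Sdhb was 0.26 in the double knockout and 2.04 in the alpha knockout, and that of Sdhc was 0.5 and 3.1.

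The promoter windows of 3 complex II genes that fell are shown because PGC-1 coactivators act through factors that bind such sequences. Each runs from 250 bases before to 50 after the annotated start on the gene's own strand (RefSeq, GRCm38.p6). Capitals mark matches on either strand to the NRF1 motif (GCGCA, any base, GCGC), to CCGGAAG, bound by GABP and other ETS factors, or to TNAAGGTCA, bound by oestrogen-related receptors. No 2 of these motifs overlapped in the windows printed. Sdha lies at chr13:74350191-74350490 on the minus strand, Sdhb at chr4:140961021-140961320 on the plus strand and Sdhd at chr9:50603800-50604099 on the minus strand.
Sdha: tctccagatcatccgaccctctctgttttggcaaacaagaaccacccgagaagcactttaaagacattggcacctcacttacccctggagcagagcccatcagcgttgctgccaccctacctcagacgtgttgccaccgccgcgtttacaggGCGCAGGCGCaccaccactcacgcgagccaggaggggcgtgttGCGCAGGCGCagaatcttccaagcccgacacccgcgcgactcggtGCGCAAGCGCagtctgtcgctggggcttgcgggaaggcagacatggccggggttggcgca
Sdhb: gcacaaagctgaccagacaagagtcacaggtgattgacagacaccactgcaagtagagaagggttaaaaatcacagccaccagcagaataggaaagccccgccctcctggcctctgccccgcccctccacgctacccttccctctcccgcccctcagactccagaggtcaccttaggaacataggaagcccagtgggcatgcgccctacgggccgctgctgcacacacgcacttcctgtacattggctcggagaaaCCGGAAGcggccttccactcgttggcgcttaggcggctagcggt
Sdhd: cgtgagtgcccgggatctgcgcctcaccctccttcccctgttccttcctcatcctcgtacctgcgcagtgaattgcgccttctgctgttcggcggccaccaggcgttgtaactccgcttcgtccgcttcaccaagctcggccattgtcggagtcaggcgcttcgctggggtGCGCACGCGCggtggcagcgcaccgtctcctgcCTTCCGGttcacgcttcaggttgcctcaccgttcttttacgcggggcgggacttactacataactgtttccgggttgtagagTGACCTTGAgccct
Sdha held 3 NRF1 matches, Sdhb 1 ETS match, and Sdhd 1 match of each motif. Of the 19 genes of the complex II and III lists, 14 had a window, of which 3 held the NRF1 motif, 8 the ETS motif and 1 the oestrogen-related receptor motif. That is 21.4%, 57.1% and 7.14% of the 14. Among the genes tested that had a window, 10.6%, 18% and 0.99% held the 3 motifs in the same order, and over all 32851 windows 4.60%, 8.86% and 1.28%. The NRF1 motif was in 14.0% of the genes that fell and 9.29% of those that rose. The ETS motif was in 20.3% of the genes that fell and 19.2% of those that rose, and the oestrogen-related receptor motif in 0.77% and 1.19%. Cycs and Ttc19, which fell, had windows with none of these motifs, as had Chchd10, outside the 2 lists. Of the listed genes with the ETS motif, Sdhb, Sdhd and Bcs1l fell. Sdhaf1, Sdhaf2, Uqcr11 and Uqcrh did not pass, and Hccs was not tested. A match describes letters only and shows no binding.

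Complex III hands electrons from ubiquinol to cytochrome c. Of its 11 tested genes, cytochrome c and assembly factors included, 5 fell and none rose (median -0.69). Cyc1, its haem-carrying cytochrome c1, had -1.57, -1.82 and -2.07, a 3.53-fold lower and stable level (mean -1.82 ± 0.25, SD, n = 3, limma adjusted p = 0.0028). Uqcrc1, a core subunit, had -0.89, -1.16 and -0.85 (limma adjusted p = 0.0106). Cycs, cytochrome c itself, had -1.48, -0.62 and -1.77 (limma adjusted p = 0.0203). Ttc19, which helps turn over the Rieske protein during assembly, and Bcs1l, which inserts that protein, were the other two that fell. The authors' deposited tables give Cyc1 a mean ratio over floxed controls of 0.38 in the double knockout and 2.06 in the alpha knockout.

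Complex I, which oxidises NADH, moved both ways. Of 34 tested subunits 7 fell and 4 rose, with a median of -0.26. Ndufv1, the flavin-binding subunit that accepts electrons from NADH, had -1.55, -1.89 and -1.70 (mean -1.71 ± 0.17, SD, n = 3, limma adjusted p = 0.00251). Ndufa11 had -1.12, -1.89 and -2.49, a wider spread. Ndufs7, which carries an iron-sulphur cluster, and Ndufa8 had means of -1.12 and -1.02. These 4 were the stable ones. The 4 that rose were Ndufb3, Ndufa6, Ndufb8 and Ndufa2, small accessory subunits, and Ndufb3 averaged 0.98. Acad9 and Ecsit, which assemble complex I, averaged 1.24 and 0.75 and rose, though neither was stable.

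Complex IV and ATP synthase were likewise split. Cox7a2l, which joins respiratory complexes into supercomplexes, had -1.94, -1.69 and -1.81 (limma adjusted p = 0.00536). Cox6b1 and Cox4i1, subunits of cytochrome c oxidase, averaged -1.09 and -0.83 and fell, while the subunit Cox7b averaged 1.35 and rose. Of 16 tested complex IV genes, 3 fell and 1 rose (median -0.30). In ATP synthase 4 of 14 fell and 3 rose, and the median of 0.01 had no settled sign, at -0.71 without centring. By the indirect difference all 14 ATP synthase genes were below 0 (median -0.79), as were 30 of 34 complex I and 13 of 16 complex IV genes (medians -0.61 and -0.64), against 6663 of the 11402 genes tested (median -0.13). Atp5d, the delta subunit of the central stalk, had -1.41, -2.19 and -1.94 (limma adjusted p = 0.00251). Atp5g1 and Atp5g2, which encode the same rotor-ring protein, averaged -1.32 and -1.08, and Atp5b, a catalytic subunit, also fell. Atp5c1, the gamma subunit next to Atp5d in the stalk, had 1.21, 1.38 and 0.93 and rose (limma adjusted p = 0.0146), as did Atp5h and Atp5e. The indirect difference of Atp5c1 was -0.04 and did not pass (limma adjusted p = 0.966).

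**Figure D1:**
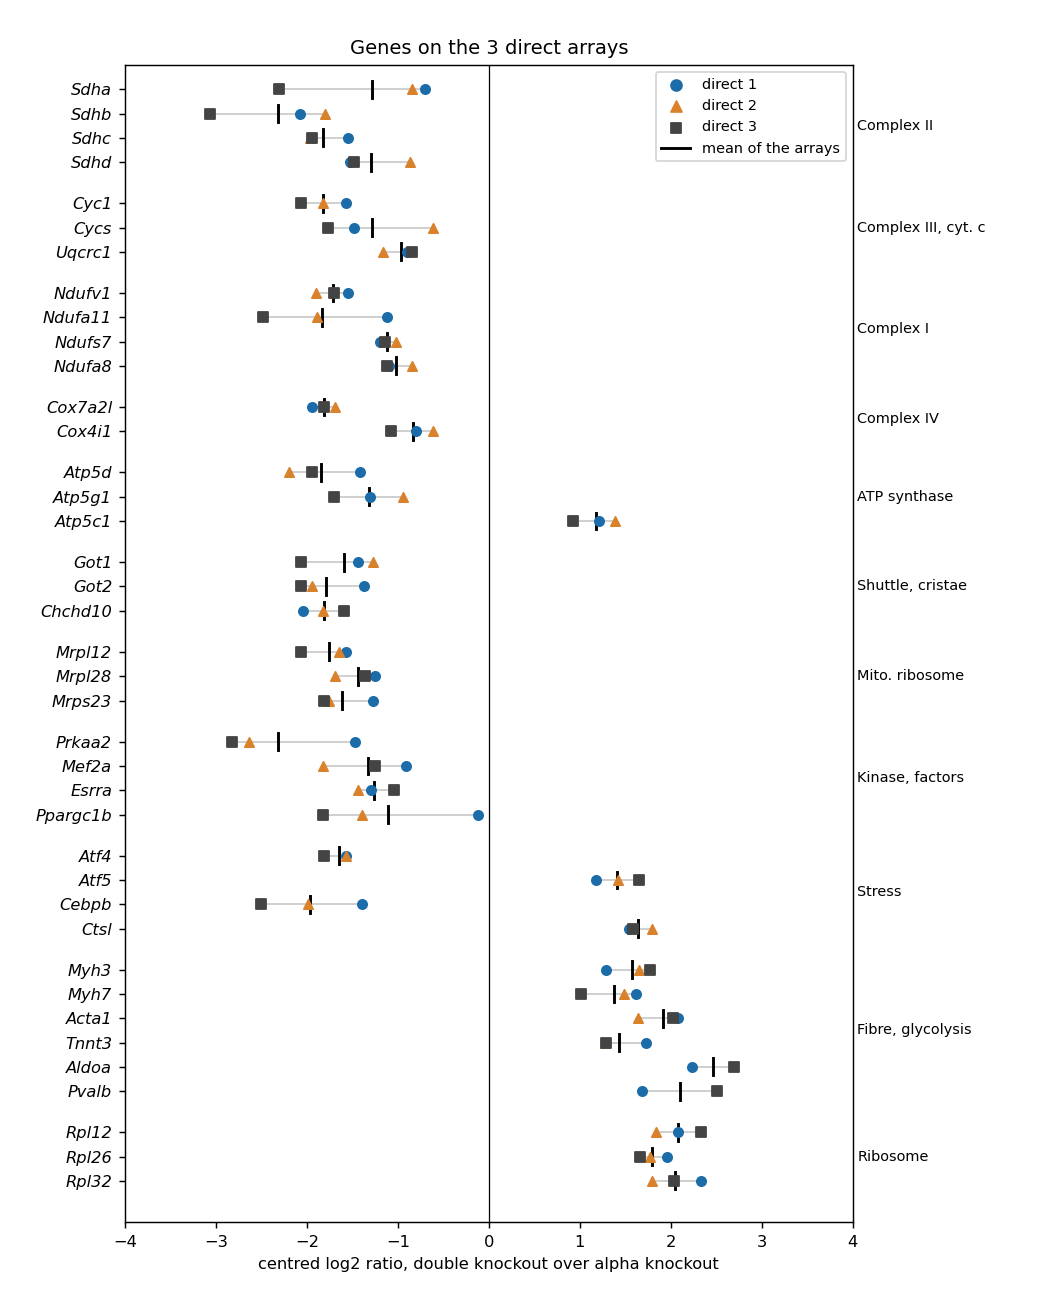
Centred log2 ratios of double knockout over alpha knockout for 39 named genes, grouped by role. Each symbol is 1 direct array and the bar is the mean; Aldoa and Pvalb have no usable ratio on direct 2. Sdhc, Cyc1, Ndufv1 and Atp5d lay below -1 on every array, and Rpl12, Rpl26 and Rpl32 above 1.

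Other steps of mitochondrial metabolism had list medians below the -0.09 of all genes tested, each lowest on direct 3. Of 22 tested citric acid cycle and pyruvate entry genes 3 fell (13.6%) and 1 rose (4.55%), against 8.24% and 5.61% of all genes tested. Their median was -0.48, with -0.56, -0.0016 and -0.75 on direct 1, direct 2 and direct 3. Those that fell, Dlat, Dld and Dlst, encode parts of the pyruvate and 2-oxoglutarate dehydrogenase complexes and averaged -1.22, -1.58 and -0.80. Mdh2, mitochondrial malate dehydrogenase, had 0.85, 1.10 and 1.13 and rose, while its indirect difference was -0.23. Got1 and Got2, the aminotransferases of the malate-aspartate shuttle in cytosol and mitochondrion, averaged -1.59 and -1.79 and were both stable. Coq9 and Coq8a, needed to make coenzyme Q, fell to means of -1.70 and -0.99. In fatty acid oxidation 4 of 19 fell and 1 rose (median -0.51). The 4 were Echs1, Acadvl and Decr1, enzymes of beta-oxidation, and Slc25a20, the carnitine-acylcarnitine carrier, with means between -1.29 and -0.82. Etfb, an electron acceptor of this pathway, rose. Bckdk, the kinase that switches off branched-chain ketoacid dehydrogenase, had -1.57, -2.39 and -2.07 and was stable (limma adjusted p = 0.00541). In branched-chain amino acid breakdown 3 of 15 fell and 1, Mccc1, rose (median -0.65). The median was -0.37, -0.24 and -1.40 on direct 1, direct 2 and direct 3. Clybl, a mitochondrial enzyme known in human cells to break down citramalyl-CoA, had -2.31, -2.40 and -2.83 and the lowest adjusted p of the genes named here (limma adjusted p = 0.00185).

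Of 74 tested mitochondrial ribosomal protein genes 14 fell and 7 rose, which is 18.9% and 9.46% of them (median -0.34). The list's median was -0.13, 0.08 and -0.53 on direct 1, direct 2 and direct 3, and thus not below 0 on direct 2. Mrpl12, Mrpl28, Mrpl45, Mrps11 and Mrps23 fell stably. Mrpl28 had -1.25, -1.69 and -1.36, and Mrps23 had -1.27, -1.76 and -1.81. Import and dynamics genes fell in 7 of 24 cases and rose in 1 (median -0.62). Fis1, a receptor for the fission machinery, had -0.95, -1.08 and -2.07, and Mtx1, an outer-membrane import component, had -0.83, -1.25 and -1.23. Timm50 and Timm44, of the inner-membrane import machinery, averaged -1.23 and -1.15. Prohibitins Phb and Phb2 averaged -1.11 and -1.06, and Grpel1, a co-chaperone of imported proteins, averaged -1.36. Hspe1, the co-chaperonin of the matrix, went the other way with 1.12, 1.95 and 1.85 (limma adjusted p = 0.00399). Chchd10, a protein of the mitochondrial intermembrane space, had -2.04, -1.82 and -1.59 and was stable (mean -1.82 ± 0.23, SD, n = 3, limma adjusted p = 0.00251). Its authors' deposited mean ratio over floxed controls was 0.12 in the double knockout and 1.2 in the alpha knockout. Chchd6 and Apool, components of the cristae complex MICOS, averaged 1.29 and 0.81 and rose, neither stably. No gene of mitochondrial DNA maintenance passed, out of 14. Mterf3, a regulator of mitochondrial transcription, had -1.33, -0.26 and -3.41 (limma adjusted p = 0.0686), and Tfb2m, an initiation factor, -0.65 and -0.79 with no value on direct 2 (limma adjusted p = 0.0861).

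In the list of PGC-1 family members and partner factors 5 of 19 fell and none rose (median -0.58). One of the 5 was Ppargc1b itself, and the others were partner factors. Esrra, the oestrogen-related receptor alpha, had -1.30, -1.44 and -1.04 (limma adjusted p = 0.0145), and Mef2a, a muscle transcription factor, had -0.90, -1.83 and -1.25 (limma adjusted p = 0.00541). Gabpa, the DNA-binding subunit of GABP, had -1.58, -0.56 and -2.51 (limma adjusted p = 0.0125). Nrf1 had -0.94, -1.25 and -0.87 (limma adjusted p = 0.0133), but its indirect difference was 0.83 (adjusted p = 0.275). Of these, Mef2a alone was stable. Prkaa2, the catalytic alpha2 subunit of AMP-activated kinase, had -1.48, -2.64 and -2.83, a stable 4.97-fold lower level (limma adjusted p = 0.00308). It was the single gene of 8 tested in its list that passed, which is 12.5%, against 13.8% of all genes tested. Over floxed RNA, Prkaa2 averaged -0.09 in the double and 2.05 in the alpha knockout, and Mef2a 0.43 and 1.27. Esrra averaged -1.26 and 0.05.

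**Figure D2:**
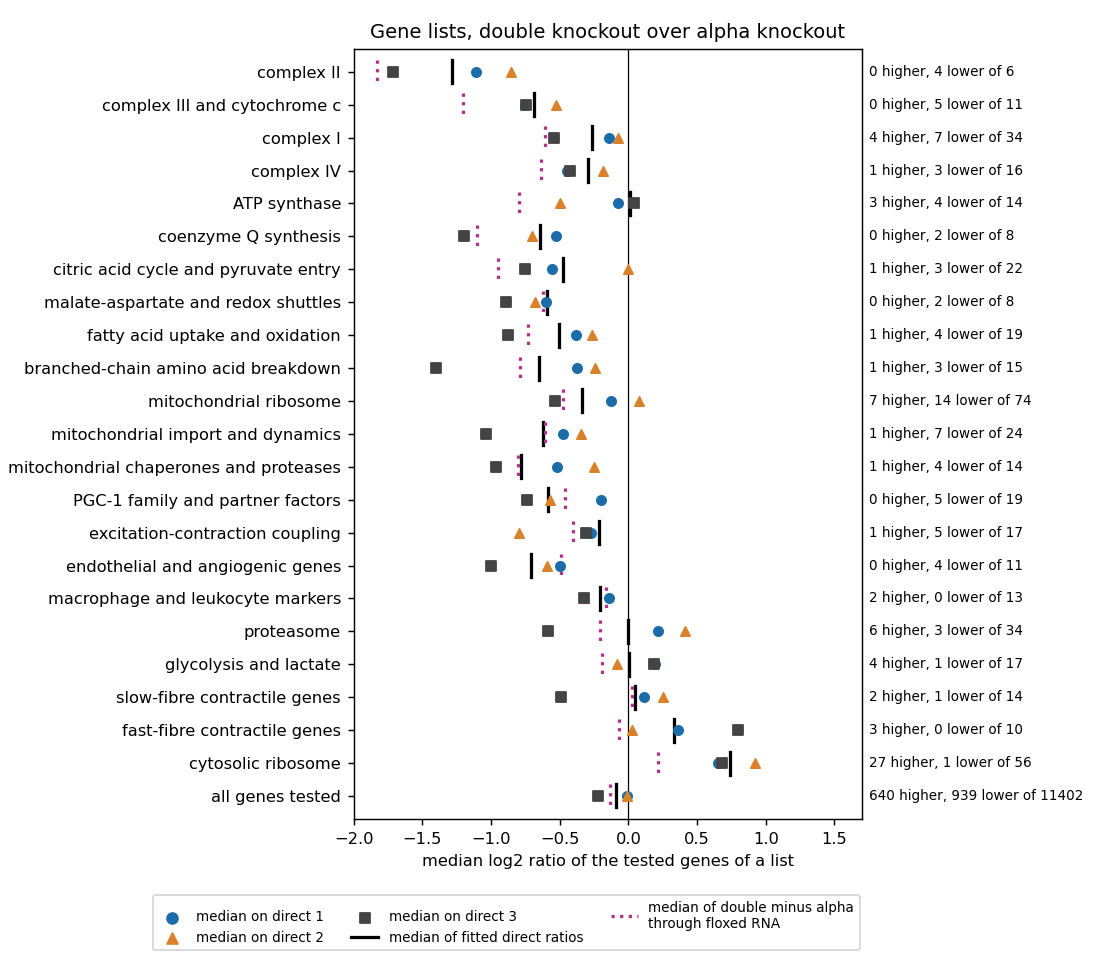
Median log2 ratio of the tested genes of 22 lists and of all genes tested, double knockout over alpha knockout. Symbols are the medians on each direct array, the solid bar the median of the fitted direct ratios and the dotted bar the median of the indirect difference; counts at the right are genes that passed. Complex II lay lowest at -1.29 and the cytosolic ribosome highest at 0.74.

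The fast-fibre and glycolytic markers Aldoa and Pvalb were higher in the double knockout, on the 2 arrays that measured them. Aldoa, the muscle aldolase of glycolysis, had 2.24 on direct 1 and 2.70 on direct 3 (limma adjusted p = 0.0105). Pvalb, the calcium buffer of fast fibres, had 1.69 and 2.51 (limma adjusted p = 0.0101). Neither had a value on direct 2, where both signals were equal. Pgam2, muscle phosphoglycerate mutase, averaged 1.85 over the same pair of arrays, and Tnnt3, fast troponin T, had 1.72, 1.27 and 1.29 (limma adjusted p = 0.00472). Acta1, skeletal alpha-actin, had 2.08, 1.64 and 2.02 (limma adjusted p = 0.00393). A slow and an embryonic myosin were higher too. Myh7, slow myosin, had 1.62, 1.49 and 1.01, and Myh3, embryonic myosin, 1.28, 1.65 and 1.77. Over the lists, 3 of 10 tested fast-fibre genes rose (median 0.33, but -0.35 without centring). By the indirect difference the median of these 10 was -0.06, with 6 below 0. Myh1, a fast myosin, was their lowest member on the direct arrays at -0.99 and did not pass. Of 14 slow-fibre genes 2 rose and 1, Actn2, fell. Myh3 was the single gene of 14 in the developmental and regeneration list to pass, and that list's median was -0.05, with 8 of 14 below 0. Of 17 glycolysis genes 4 rose and 1, Pfkfb3, fell, with a median of 0.01 that was -0.67 without centring. Among the fast-fibre genes that rose, Tnnt3 alone was stable. Acta1, Myh7 and Myh3, of other lists, were stable as well.

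Equal signals were frequent among fast-fibre probes on direct 1 and direct 2 and absent from them on direct 3. On both direct 1 and direct 2, 33 probes had an unscaled ratio of exactly 1, meaning the same signal in both channels. They included 2 probes each of Myh4 and Tpm1, and probes of Myh1, Myh8, Mylpf, Tnnc2, Mybpc2, Eno3, Rps12, Rps23 and Rps28. Of the 33, 23 had a gene symbol. Others were of genes such as Olfr955, Prr9, Slc44a4 and Tenm1, with no usable ratio on direct 3. Of 26 fast-fibre probes, 9 on direct 1, 12 on direct 2 and none on direct 3 had equal signals, against 1.07%, 1.5% and 0.86% of all probes. Such probes were left out. On direct 1, where the factor was 5.06, the unscaled ratio was 0.764 for Acta1, 0.853 for Aldoa, 0.743 for Pgam2 and 0.598 for Tnnt3, against a median of 0.184. On direct 3 it was 0.171, 0.273, 0.134 and 0.103, against 0.0431. Of the 640 genes that rose, 558 (87.2%) had an unscaled ratio below 1 on every array with a value. So had 11245 of the 11402 genes tested (98.6%) and all 939 that fell. Signals are not in the table, and the part of equal signals in the rises was not tested.

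The indirect difference did not pass for any of these genes, at -0.20 for Acta1, -0.14 for Tnnt3, 0.93 for Aldoa, 1.16 for Pvalb and 0.82 for Myh7. The difference between routes was 2.12 on the log2 scale for Acta1 and 1.57 for Tnnt3, with a limma adjusted p of 1.0 for both. In the authors' deposited tables the mean ratio of Pvalb over floxed controls was 1.17 in the double knockout and 0.59 in the alpha knockout. The 2 Aldoa probes had 2.41 and 2.2 in the double knockout, against 1.42 and 1.33 in the alpha knockout. These are means of linear ratios without the centring used here. As centred log2 ratios over floxed RNA, Aldoa had 0.27 on double knockout array 1 and 2.39 on array 3. The alpha knockout arrays had 0.29, 0.25 and 0.65, so only array 3 lay above them. Pvalb had -0.36 and 0.90 on the same double knockout arrays, against -0.61, -1.34 and -0.72. Neither gene had a usable ratio on double knockout array 2.

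**Figure D3:**
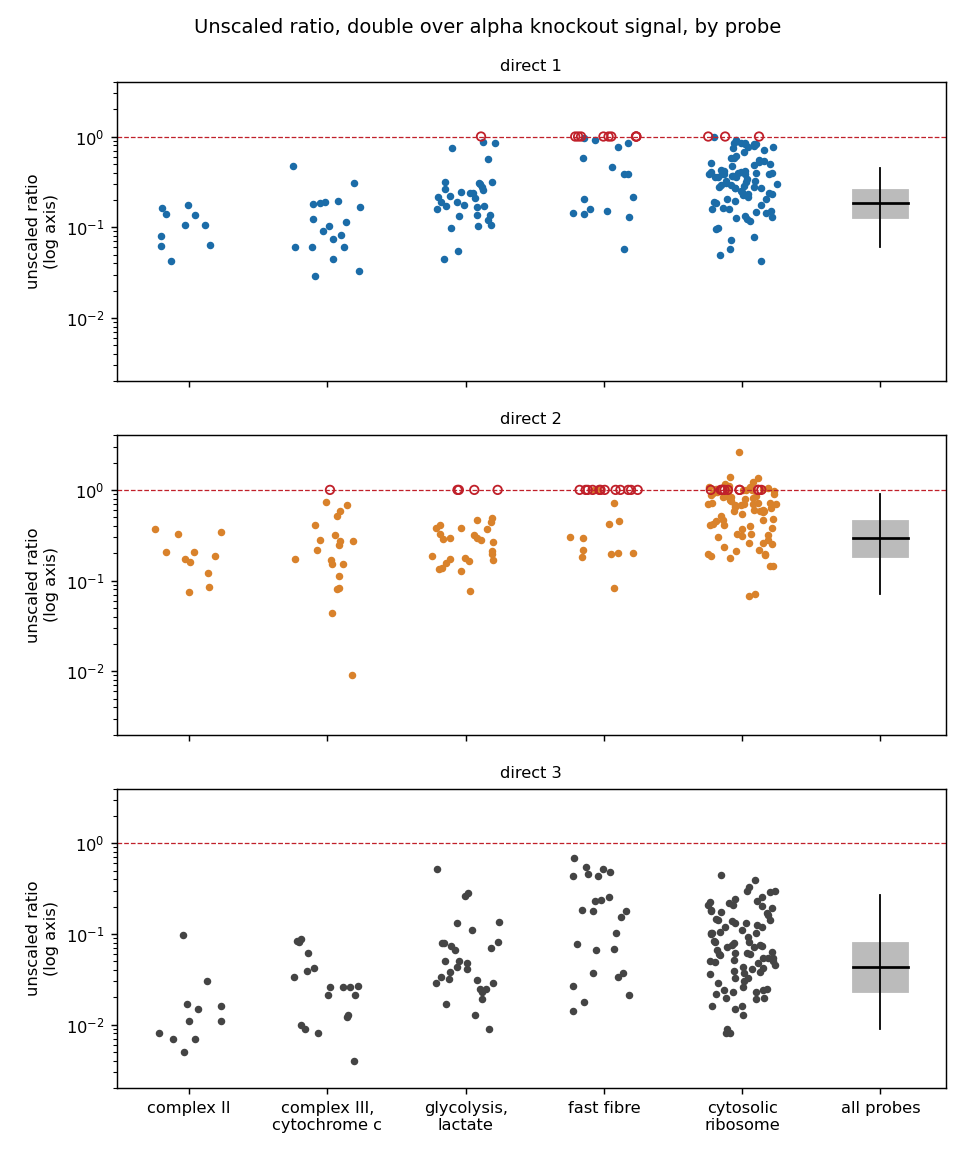
Unscaled ratio of double knockout over alpha knockout signal by probe, on a log axis, for 5 lists on each direct array. Open red circles are equal signals at a ratio of 1; the box and line at the right give the 25th to 75th and the 5th to 95th percentile of all usable probes. On direct 1 and direct 2 the fast-fibre probes gather at 1, and on direct 3 none has equal signals.

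Of the 47 lists, that of the cytosolic ribosome held the largest share of genes that rose, 48.2%. Of 56 tested 27 rose and 1, Rpsa, fell. The median was 0.74, and 49 of 56 were above 0. It kept its sign without centring, at 0.06. Rpl32 had 2.33, 1.79 and 2.03 (limma adjusted p = 0.00248), Rpl12 had 2.08, 1.84 and 2.33 (limma adjusted p = 0.00251) and Rpl26 had 1.96, 1.77 and 1.66 (limma adjusted p = 0.00251). These large-subunit proteins were high on every array, with the 3 values of each close together. Rpl27 had 2.19 and 1.77, with equal signals on direct 2. The stable members were Rpl10, Rpl12, Rpl26, Rpl30, Rpl32, Rps21, Rps28 and Rps4x. Their indirect differences were between 0.47 and 1.57 and did not pass. Equal signals made up 3.06%, 11.2% and 0% of the 98 ribosomal probes, and the median unscaled ratio of the rest was 0.325, 0.637 and 0.0711. Ribosomal protein genes have many processed copies in the genome, and whether the probes separate them is not given in the sources used here.

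Stress and turnover genes moved both ways. Atf4, the transcription factor of the integrated stress response, had -1.57, -1.56 and -1.81 (mean -1.65 ± 0.14, SD, n = 3, limma adjusted p = 0.00251). Its relative Atf5 had 1.17, 1.42 and 1.65 (limma adjusted p = 0.00578). These 2 were the only genes of 13 in that list to pass, in opposite directions and both stably. Each direction is 7.69% of the list, against 5.61% higher and 8.24% lower over all genes tested. Cebpb, a transcription factor, had -1.39, -1.99 and -2.51, and Ctsl, a lysosomal protease, had 1.54, 1.79 and 1.58, both stable. Gabarap, which builds autophagosomes, averaged -1.19, and Sqstm1, an autophagy receptor, averaged 1.52. Of 34 proteasome genes 6 rose and 3 fell (median -0.01). Psma5 and Psma7, of the catalytic core, averaged 1.23 and 1.10, and Psmd2, of the regulatory particle, averaged -1.03. Prdx2, a cytosolic peroxiredoxin, had -1.33, -1.76 and -3.09, and Prdx3, its mitochondrial relative, -1.08 and -1.81 with no value on direct 1. In the antioxidant list 4 of 20 fell and 1 rose (median -0.42). Hspb8, a small heat-shock protein, had -1.31, -2.09 and -2.38 and was stable.

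In excitation-contraction coupling 5 of 17 genes fell and 1 rose (median -0.22). Cacna2d1, the alpha2-delta subunit of the muscle calcium channel, had -2.01, -1.75 and -3.40, a stable 5.22-fold lower level (limma adjusted p = 0.00275). Cacng1, its gamma subunit, had -0.81, -1.43 and -1.30, and Stim1, the store sensor of the reticulum, averaged -1.10. Over floxed RNA, Cacna2d1, Cacng1 and Stim1 averaged 0.42, 0.66 and 0.06 in the double knockout. Their alpha knockout means were 2.64, 1.88 and 1.215. Hrc, a calcium-binding protein of the reticulum, rose with a mean of 1.15. Dag1, the dystroglycan gene that ties fibres to the matrix, averaged -1.49, while Capn3, a muscle calpain, averaged 0.87.

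Metabolic regulators and secreted factors gave small counts. Akt2, a kinase of insulin signalling, averaged -1.21 and Irs1, its upstream adaptor, 1.12. Lpin1, a phosphatidate phosphatase, averaged -1.40 and Pnpla2, the main triglyceride lipase, -1.11, while the droplet coat gene Plin3 averaged 1.33. Acacb and Scd1, enzymes of fatty acid regulation and desaturation, averaged -0.81 and -0.96. Pgm1 and Gyg, of glycogen metabolism, averaged 1.30 and 1.00, and Gsk3b, the kinase that inhibits glycogen synthase, averaged -1.85. Fndc5, the irisin precursor, had -1.08, -1.21 and -0.79 (limma adjusted p = 0.00946), and Vegfb averaged -1.01. The clock genes Bhlhe40, Per1 and Rora averaged -0.88, -1.11 and -1.02. None of the genes in this paragraph was stable.

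The largest changes were partly in genes of dim signal. Kdm6b, a histone H3 lysine demethylase, had -3.41, -3.38 and -2.59, the largest fall (limma adjusted p = 0.00251). On the 9 arrays against floxed RNA 33.3% of its probe values were dim or undefined, against 11.1% in the median tested gene. Its indirect difference was -1.53 (adjusted p = 0.237). Kdm3b and Kdm2a of the same family averaged -1.0 and -1.05. Among genes with a value on all 3 arrays and a gene name rather than a clone name, the largest rises were Adam10, Mrgpra2b and Cdcp1. Adam10, a membrane protease, had 2.46, 3.47 and 4.63, and 50% of its values on those arrays were dim or undefined. Mrgpra2b had 2.56, 3.17 and 4.22 with none dim or undefined, and Cdcp1 had 3.01, 2.95 and 3.41 with 63.0%. Trim55, a muscle RING-finger protein of the sarcomere, had 2.80, 2.60 and 3.68, and Dlx5, a homeobox factor, 2.49, 2.23 and 3.77. Rngtt, Mrpl46 and Rsbn1 were each at -4.41 on direct 3, an unscaled ratio of 0.00198, near the lowest steps of its rounding, and at or above -2.11 on the other two.

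Markers of other cell types were read beside these results. In the endothelial list 4 of 11 tested genes fell and none rose, with a median of -0.71. Cldn5, a tight-junction protein, had -1.35, -1.69 and -2.59, and Cdh5, the endothelial cadherin, had -0.50, -1.39 and -1.57. Sox17 and Esam averaged -1.36 and -0.71. None was stable. Among leukocyte markers 2 of 13 rose (15.4%, against 5.61% of all genes tested). They were Cd163 with a mean of 1.74 and Cd3e with 1.06, while the list's median was -0.20. Of 17 fibroblast and matrix genes 3 fell and 1 rose (median -0.08), among them Fmod at -1.86 and Fn1 at 1.82. Smtn and Myh11, of smooth muscle, averaged -1.22 and -0.81 and fell, 2 of 10 tested. No tendon, adipocyte, nerve or blood gene passed, out of 5, 4, 5 and 6. The lowest adjusted p in each was that of Thbs4 (mean -1.42), Car3 (mean 0.86), S100b (mean 1.05) and Hbb-bt (mean 0.71). The part of these cells in the changes of fibre genes was not tested.

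The indirect difference asked the same question through other arrays, in which a dye effect that is constant for a gene cancels. On the direct arrays, with no dye swap, dye and genotype cannot be told apart. Of the 11402 genes tested 14 passed by the indirect route, all lower in the double knockout, which is 0.123%. Single arrays decided this count, which was 1 without any 1 of the 3 alpha knockout arrays over floxed RNA, without the second or the third double knockout array over floxed RNA, or without either PGC-1beta array. It was 81 without the first double knockout array over floxed RNA (23 higher, 58 lower), and 6 and 7 without direct 1 and direct 2. With array weights 3398 passed (1169 higher, 2229 lower), and with arrays scaled 50 (5 higher, 45 lower). With the replicate number as a block, which the double and alpha arrays share, 6 passed, 5 of them lower. Of the 14 genes, 13 had also fallen on the direct arrays. They were Chchd10, Mrpl28, Sdhc, Cyc1, Ndufv1, Uqcrc1, Cox4i1, Atp5d, Atp5g1, Clybl, Mpv17l2, Tomm40l and Endog. Endog is a nuclease of mitochondria, Tomm40l a relative of the outer-membrane import pore, and Mpv17l2 a protein of mitochondrial ribosome assembly in human cells. The remaining gene was Adnp, at -2.75. Channel labels contradict the titles on 6 of the 9 arrays against floxed RNA, where groups here follow the titles. Grouped by the channel labels, no gene passed the indirect route. Chchd10 had the largest of these differences but for Mpv17l2, at -3.23 (limma adjusted p = 0.00431), where its mean was -3.04 ± 0.30 in the double knockout and 0.19 ± 0.36 in the alpha knockout over floxed RNA (SD, n = 3 each). Sdhc differed by -2.56 (limma adjusted p = 0.0228), with -0.99 ± 0.55 in the double knockout and 1.57 ± 0.23 in the alpha knockout (SD, n = 3 each). Cyc1 differed by -2.44 (limma adjusted p = 0.0325), with -1.46 ± 0.02 in the double knockout (SD, n = 2) and 0.98 ± 0.30 in the alpha knockout (SD, n = 3).

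**Figure D4:**
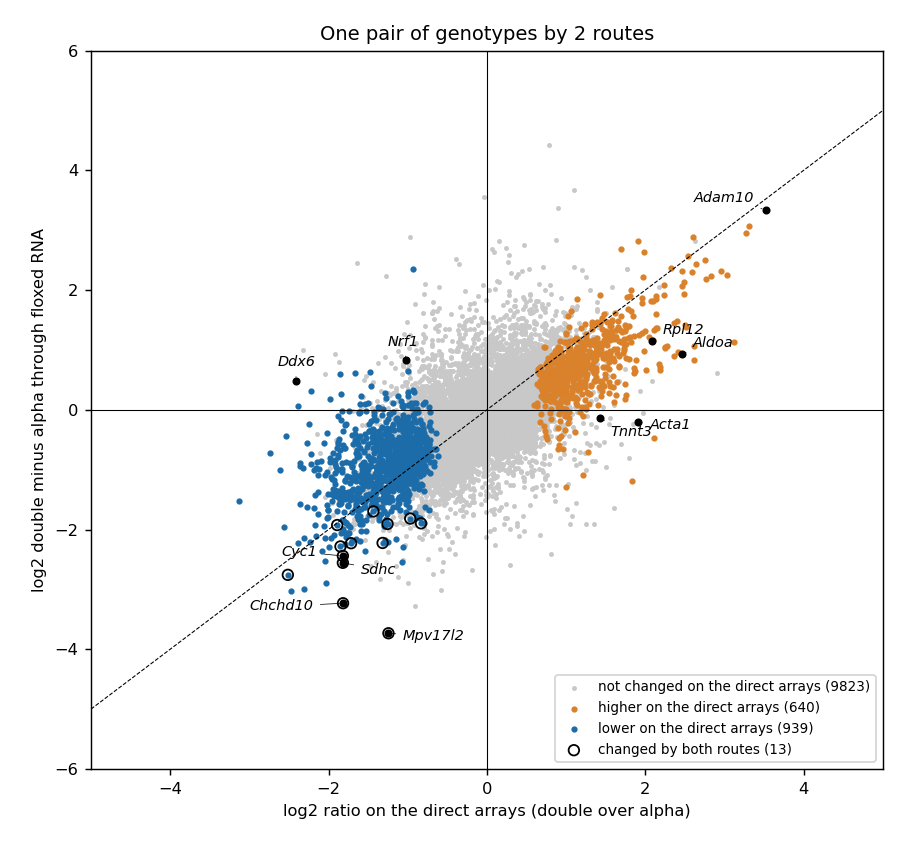
Fitted log2 ratio on the direct arrays against the indirect difference through floxed RNA for the 11402 genes tested, both double over alpha knockout. Orange points rose and blue points fell on the direct arrays, black rings changed by both routes, and the dashed line marks equal values. Sdhc, Cyc1 and Chchd10 lie low on both axes, while Acta1 and Tnnt3 lie right of 0 on one and near 0 on the other.

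Over all genes tested the 2 routes had the same sign in 75.1%, with r = 0.635 across genes, which are not independent replicates. Of the 640 genes that rose on the direct arrays 606 were above 0 by the indirect route, and of the 939 that fell 898 were below 0. The test of the difference between the routes called no gene, by limma, with 412 genes at an unadjusted p below 0.05. That test had little reach in simulated data. On simulated data with a gap on the direct arrays alone, it recovered 0% of genes at a gap of 1 on the log2 scale and 9% at a gap of 2. With a shift of 1 on both routes, the direct test recovered 17% of genes and the indirect test 1%. With a shift of 2 they recovered 82% and 25%. Each simulation shifted 100 of the 11402 genes at each size, and its array errors were independent. In the data 13.8% of genes passed the direct test and deviations of some arrays correlated, so these rates need not hold there. The 6 genes with the lowest unadjusted p of this difference were Nkg7 at -3.28 (limma adjusted p = 0.574) and, each with a limma adjusted p of 1.0, Mpv17l2 at 2.49, Nkiras2 at -2.45, Nup50 at 2.06, Acta1 at 2.12 and Nrf1 at -1.85. Ddx6, an RNA helicase that represses translation, had -1.35, -3.06 and -2.83 on the direct arrays and an indirect difference of 0.49.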

How the data were processed

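Total RNA was labelled and hybridised to 2-colour Agilent arrays, per the labels' protocols. The deposited values are linear ratios of Cy5 over Cy3, and scanner signals were not used here. Values at or below 0 and each array's repeated highest value were taken as undefined. The deposited ratio proved to be a ratio rounded to steps of 0.001 times 1 factor per array. Dividing by that factor gave the unscaled ratio. Ratios equal to a fraction of whole numbers up to 10 were left out as dim or equal signals. Probes of 1 symbol were averaged on the log2 scale, and values were centred on each array's median gene. The authors' deposited tables of mean ratios matched the grouping by titles within 0.006 for all 9610 and 5990 probes.

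Genes with at least 2 values in every group were fitted with limma 3.58.1 in R 4.3.3 (lmFit, eBayes) over 11 arrays. The array of the third PGC-1beta knockout replicate was left out of the fit, a choice made with earlier results of these data known. With it included, 266 genes passed on the direct arrays and 0 by the indirect route. Contrasts were the direct ratio against 0, double minus alpha over floxed RNA, and their difference, two-sided, Benjamini-Hochberg adjusted over 11402 genes at 0.05. The test was checked on simulated data. Deviations of same-numbered double and alpha arrays correlated at r = 0.48, 0.21 and 0.12, and those of differently numbered ones at -0.45 to 0.28. The blocked count therefore stands beside the indirect result, though pairing by number is not settled. Direct arrays had r = 0.17, 0.005 and 0.30 with same-numbered double arrays, and -0.03, -0.33 and -0.06 with same-numbered alpha arrays. Between direct arrays and differently numbered double or alpha arrays r ran from -0.32 to 0.31. Whether the direct arrays pair with the others cannot be settled from these values.

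The genes and lists were chosen with earlier results of these data known. Named genes are the coactivators and 6 markers, up to 4 genes per list with the lowest adjusted p past the threshold (up to 2 lowest where none passed), the 10 largest rises and falls, 12 genes past both routes and 6 where the routes differed most by p, of which the text gives a selection. Other names complete counts or describe equal signals and stable genes, and were chosen after their values were seen. Alternatives concerned centring, dim ratios, arrays fitted, filters, probes, scaling, weights, the block and labels.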

Additional observations from a re-analysis of the deposited data

How the results depend on the processing

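The direct count of 1579 genes was 0 with the direct arrays alone, 266 with all 12 arrays, 0 with 12 arrays uncentred and dim ratios kept, 983 grouped by the channel labels and 921 over genes with no dim or undefined value against floxed RNA, an alternative chosen after seeing the data. Leaving out 1 array gave 337 to 1708. With the replicate number as a block it was 1988 (782 higher, 1206 lower), where it is not known whether direct arrays share more than a number with the others. The indirect count of 14 was 2 with dim ratios kept, 0 without centring, 0 with all 12 arrays, 0 with these uncentred and dim ratios kept, 26 with a value required on every array, 1 with a value on at least 2 direct arrays, 50 with arrays scaled, 3398 with array weights, 6 with the replicate block and 0 by the channel labels. Chosen after seeing the data, centring within classes of dim signal gave 9, genes with no dim or undefined value 78 and leaving out the PGC-1beta arrays 1. Leaving out 1 array gave 1 to 81. The difference between routes called 11 genes with array weights and 0 otherwise. The log2 ratio of Nup50 on the double over alpha arrays turned to -0.31 with dim ratios kept, -0.63 without centring and -0.82 with 12 arrays uncentred and dim ratios kept. With the last, the log2 ratio of Hbb-bt on the double over alpha arrays was -0.006725. The causes were not tested. Without centring 7 of 47 list medians changed sign, ATP synthase, glycolysis and fast fibre among them. Coarse steps limit low ratios on direct 3.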
